A study of Mus musculus with 12 samples.

Results

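Messenger RNA is methylated at internal adenosines (m6A) by a nuclear writer complex, and the methyl group can be removed by eraser enzymes. The levels of 9 genes of this system were followed in sorted mouse round spermatids, out of 28643 gene symbols with usable values. They were chosen by name: Mettl3, Mettl14, Mettl16, Wtap, Zc3h13, Rbm15 and Cbll1 for the writers, and Alkbh5 and Fto for the erasers. All 9 were present in the table and passed the limit on low values in each of the 5 comparisons. Values are FPKM, a read density per length of transcript and per library total, so levels may be set side by side between genes.

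The cells came from 8-week-old male mice and were kept in cycloheximide, which holds ribosomes on mRNA, while they were flow sorted. The control group carried 1 intact copy of Igf2bp3 (Igf2bp3+/-), so that it is not wild type. The other group was the homozygous knockout (Igf2bp3-/-), a Cas9-made frameshift at the exon that encodes a K-homology domain, on a C57BL/6 background, and by the study's methods knockout males with impaired fertility were chosen. IGF2BP3 is a reader protein that binds m6A-bearing mRNA. Each genotype was measured as total input (RNA-seq) and as mRNA carrying at least 4 ribosomes, recovered from a sucrose gradient (ribosome nascent-chain complex sequencing, RNC-seq). With 3 replicates for each of the 4 combinations there were 12 libraries. By the study's methods cells were sorted from individual mice, but the labels tie no library to a mouse, and p-values below measure the spread between these libraries.

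In the writer complex METTL3 is the catalytic subunit and METTL14 is the partner that holds the RNA, while WTAP, ZC3H13, RBM15, the ubiquitin ligase HAKAI (encoded by Cbll1) and the scaffold VIRMA form an associated regulatory complex that places the enzyme in the nucleus and on its targets. METTL16 is a separate methyltransferase with few known mRNA targets, of which Mat2a is the best known. ALKBH5 and FTO are dioxygenases that remove the mark. In the mouse testis, loss of Mettl3 or Mettl14 in germ cells disturbs spermatogenesis, and loss of Alkbh5 impairs male fertility.

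Some properties of the libraries bear on these genes. Between 23554 and 25633 symbols were above 0 in the RNA-seq libraries, and between 21490 and 22797 in the RNC-seq libraries. Read totals are not given, so the depth is unknown. Relative to the deepest library, Igf2bp3-/- RNA-seq replicate 1, the depth read from the lowest values was 0.38 to 0.562. Igf2bp3 itself stood at 38.2, 38.6 and 33.4 FPKM in Igf2bp3+/- RNA-seq and at 31.7, 32.5 and 31.4 in Igf2bp3-/- RNA-seq, so the frameshift allele still gave mRNA and its level does not check the labels. The 6 round spermatid markers summed to 803 to 943 FPKM in Igf2bp3+/- against 1061 to 1235 in Igf2bp3-/- RNA-seq. In RNC-seq they summed to 977 to 1231 against 1252 to 1520. The 6 spermatocyte markers summed to 71.4 to 199.4 FPKM over all libraries, and the 6 elongating spermatid markers to 8421 to 21235. For both of these sets the genotypes overlapped in each assay. The latter set is Tnp1, Tnp2, Prm1, Prm2, Odf1 and Smcp. The study measured mRNA of Tnp1, Tnp2, Prm1 and Prm2 in its sorted round spermatids, so this sum does not count elongating cells. The 6 Sertoli markers summed to at most 1.15. The summed 6 Leydig cell markers differed with genotype, at 14.6 to 21.5 FPKM in Igf2bp3+/- against 46.3 to 52.8 in Igf2bp3-/- RNA-seq, and at 6.16 to 13.9 against 50.4 to 100.5 in RNC-seq, with no Leydig marker at 0 in every library of a group. The 6 blood and immune markers summed to 4.45 to 5.47 FPKM against 10.1 to 11.2 in RNA-seq, and to 8.98 to 10.2 against 10.7 to 25.8 in RNC-seq. The part of these markers in the genotype values of the writers and erasers was not tested. Igf2bp3-/- RNC-seq replicate 2 stood apart: across 12265 genes its r with the 6 RNA-seq libraries was 0.954 on average, against 0.894 to 0.927 for the other RNC-seq libraries. Its genes with transcripts over 4000 bases were shifted by 0.44 on the log2 scale against those under 2000 bases, the highest such shift of the 12 libraries. Only 104 long genes entered this value, against 2222 short ones. Values without this library are given beside the knockout polysome results that it moves most.

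The writers and erasers fell into a high and a low set. Fto, Cbll1, Rbm15 and Alkbh5 stood between 11.2 and 31.3 FPKM in the RNA-seq group means. The catalytic pair Mettl3 and Mettl14, together with Mettl16, Zc3h13 and Wtap, stood between 0.448 and 1.76 FPKM there. The lowest gene of the high set was 7.0-fold above the highest of the low set in Igf2bp3+/- RNA-seq, and 5.29-fold above it in Igf2bp3+/- RNC-seq, and the sets did not overlap in any library. In the order of Igf2bp3+/- RNA-seq means, Fto came first and was separated from the next gene in every library, and Wtap came last and was likewise separated. Cbll1 and Rbm15 did not differ beyond their spread, since only 1 of 3 libraries kept their order, and Mettl3 and Mettl14 did so in 1 of 3 as well. Mettl16 stood above Mettl3 in 3 of 3 libraries, though their ranges overlapped. Among the 20352 genes tested in RNA-seq, the Igf2bp3+/- mean of Fto lay at percentile 87.0, that of Rbm15 at 79.5 and that of Mettl3 at 45.2, whereas Wtap lay at 26.5. Fto and Alkbh5 together made up 53.2% to 56.0% of the summed FPKM of the 9 genes in Igf2bp3+/- RNA-seq, and 54.2% to 55.7% in Igf2bp3-/- RNA-seq.

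**Figure D1:**
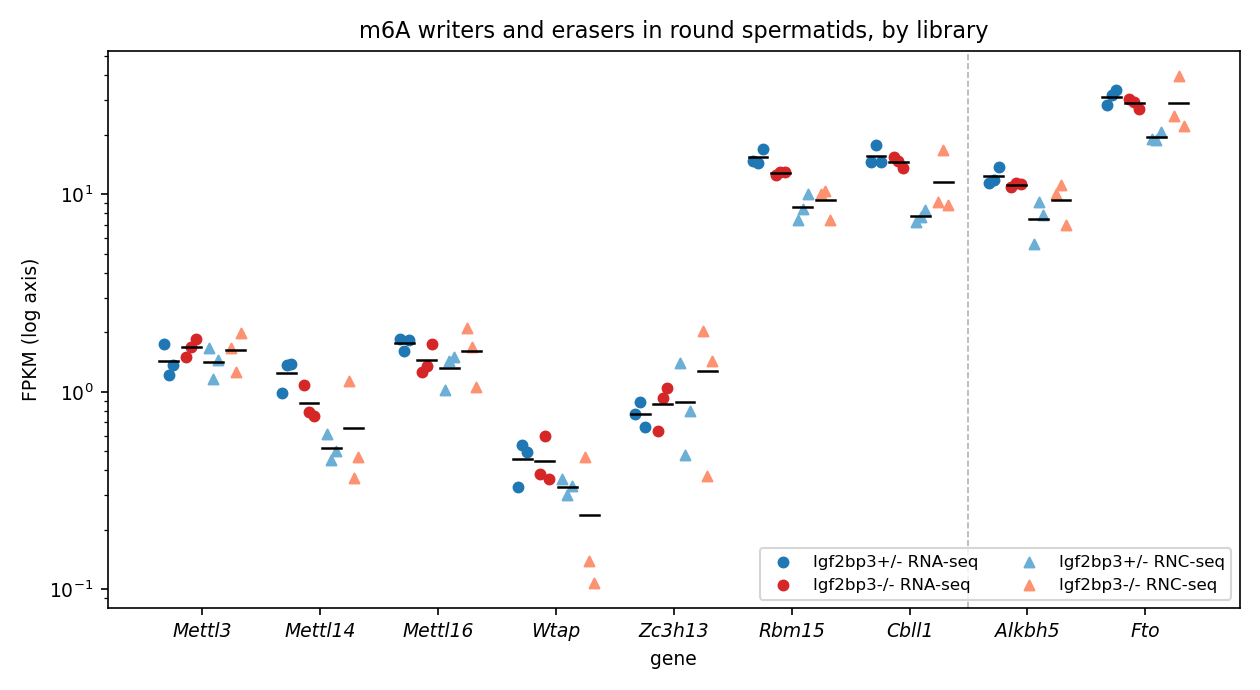
FPKM (log axis) of each of the 9 genes in the 12 libraries, with 3 points per group and a black line at each group mean; the dashed vertical line separates writers (left) from erasers (right). Rbm15, Cbll1, Alkbh5 and Fto lie at or above 5.61 FPKM in every library, and the other 5 genes at or below 2.1 FPKM.

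Before the genes are taken in turn, the outcome of each comparison is as follows. In Igf2bp3+/- cells 5 of 9 genes, Mettl14, Rbm15, Cbll1, Alkbh5 and Fto, were lower on polysomes than in total RNA (limma, adjusted p under 0.05) and 0 were higher. Over all 19798 genes tested, 26.3% were called lower and 17.3% higher in that comparison, and the median log2 change of the 9 genes was -0.67 beside -0.14 over all genes. In counts, 3431 genes were higher and 5205 lower, against 4848 and 4109 with median-centred libraries, and 2533 and 6738 with FPKM rescaled without the top transcript. That transcript, CT010467.1, took 9.22% to 13.3% of the summed FPKM in Igf2bp3+/- RNA-seq and 15.9% to 19.4% in Igf2bp3+/- RNC-seq. Its share was 5.68% to 9.25% in Igf2bp3-/- RNA-seq and 8.14% to 14.6% in Igf2bp3-/- RNC-seq. In Igf2bp3-/- cells 0 of 9 passed in either direction, where 11.0% of 19858 genes were called lower and 9.48% higher, and 1 of 9, Rbm15, was lower at an unadjusted p under 0.05, where 19.3% of all genes were. Between genotypes 0 of 9 passed in RNA-seq (0.256% of all genes called), 0 of 9 in RNC-seq (0.115%) and 0 of 9 for translational efficiency (TE, 0.00543%), the difference between genotypes in the RNC-seq to RNA-seq change. At an unadjusted p under 0.05 the count was 1 in RNA-seq, 0 in RNC-seq and 1 for TE. In bulk samples fewer cells of a type and less RNA per cell cannot be told apart.

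Mettl3 (chr14:52294841-52305128, minus strand, GRCm38) encodes the enzyme that transfers the methyl group. Its FPKM was 1.74, 1.22 and 1.36 in Igf2bp3+/- RNA-seq and 1.5, 1.68 and 1.86 in Igf2bp3-/- RNA-seq. On polysomes it was 1.66, 1.16 and 1.45 in Igf2bp3+/- and 1.67, 1.26 and 1.98 in Igf2bp3-/-. All 4 groups overlapped. The log2 change from total RNA to polysomes was -0.02 ± 0.23 (SE) in Igf2bp3+/-, with a 95% interval of -0.54 to 0.51, and -0.05 ± 0.24 in Igf2bp3-/-. Mettl3 exons share 18.4% of their bases with Tox4 on the opposite strand, and whether strand was used in counting is not stated, so its value is uncertain over that part.

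Mettl14 (chr3:123368297-123386108, minus strand) encodes the partner that holds the substrate RNA. Its FPKM was 0.988, 1.37 and 1.38 in Igf2bp3+/- RNA-seq against 0.611, 0.453 and 0.501 in Igf2bp3+/- RNC-seq. In Igf2bp3-/- it was 1.08, 0.787 and 0.755 in RNA-seq and 1.14, 0.368 and 0.467 in RNC-seq. In the control every polysome library lay below every input library, while in the knockout RNC-seq replicate 1 lay above all 3 input libraries. Its log2 loading, the RNC-seq minus RNA-seq change, was -1.11 ± 0.24 in Igf2bp3+/- (adjusted p = 0.00686), at percentile 16 of all genes, and -0.48 ± 0.38 in Igf2bp3-/- (adjusted p = 0.387). Without Igf2bp3-/- RNC-seq replicate 1, 2 or 3 the latter was -0.91, -0.20 or -0.34 (adjusted p = 0.0682, 0.704 and 0.621, with 0.0682 to 0.704 over its 16 alternatives). Between genotypes the RNA-seq change was -0.47 ± 0.22 (adjusted p = 0.343) and the TE change was 0.63 ± 0.47 (adjusted p = 0.762, 95% interval -0.38 to 1.63).

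In control cells Mettl14 was called lower on polysomes and Mettl3 was not, and a difference in loading between these 2 core subunits was not tested. Within single libraries Mettl3 was 0.886- to 1.76-fold of Mettl14 in Igf2bp3+/- RNA-seq, and 2.55- to 2.89-fold of it in Igf2bp3+/- RNC-seq, with no overlap. In Igf2bp3-/- the ratio was 1.38 to 2.46 in RNA-seq and 1.47 to 4.23 in RNC-seq, and these overlapped. No test was run on the ratio.

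Mettl16 (chr11:74770830-74828525, plus strand) encodes the methyltransferase that acts apart from the METTL3 complex. Its FPKM was 1.85, 1.61 and 1.82 in Igf2bp3+/- RNA-seq and 1.26, 1.35 and 1.75 in Igf2bp3-/- RNA-seq. It was 1.02, 1.43 and 1.5 in Igf2bp3+/- RNC-seq and 2.1, 1.69 and 1.05 in Igf2bp3-/- RNC-seq. The control polysome libraries all lay below the control inputs, whereas the knockout polysome libraries spread on both sides of theirs. The log2 loading was -0.41 ± 0.22 in Igf2bp3+/- (adjusted p = 0.158) and 0.11 ± 0.28 in Igf2bp3-/- (adjusted p = 0.818), and the latter was -0.10 when FPKM was rescaled without the top transcript. The TE difference was 0.51 ± 0.36 (adjusted p = 0.753).

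Mat2a encodes the enzyme that makes S-adenosylmethionine, the methyl donor of all these writers, and METTL16 is known to methylate a 9-base sequence in hairpins of its 3′ UTR. The GENCODE M21 transcript of Mat2a (chr6:72432799-72439558, minus strand, GRCm38; 2804 bases) holds 6 copies of that sequence, written here as TACAGAGAA or TACAGAAAA, and all lie downstream of the coding end at base 1307. They are shown with 10 bases on each side, in capitals the 9 matching bases, because they are the known mRNA substrate of a gene described here.
Mat2a transcript position 1350: tggcgtaggtTACAGAGAAgccttcaagc
Mat2a transcript position 2134: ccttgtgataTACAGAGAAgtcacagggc
Mat2a transcript position 2313: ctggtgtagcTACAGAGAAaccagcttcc
Mat2a transcript position 2428: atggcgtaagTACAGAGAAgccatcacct
Mat2a transcript position 2539: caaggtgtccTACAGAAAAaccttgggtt
Mat2a transcript position 2647: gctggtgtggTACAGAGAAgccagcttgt
TACAGAGAA occurs in 4.07% of 13455 protein-coding transcripts compared and TACAGAAAA in 3.42%, searched on the transcript strand only. Mat2a stood at 4.92, 5.12 and 5.81 FPKM in Igf2bp3+/- RNA-seq and at 4.72, 5.61 and 5.40 in Igf2bp3-/- RNA-seq. On polysomes it stood at 3.74, 2.69 and 3.51 in Igf2bp3+/- and at 2.71, 3.61 and 3.54 in Igf2bp3-/-. Every polysome value lay below every input value in both genotypes. Mat2a was lower on polysomes in Igf2bp3+/- (log2 loading -0.67 ± 0.18, adjusted p = 0.0171) and in Igf2bp3-/- (-0.66 ± 0.20, adjusted p = 0.042). That knockout call was lost in 9 of 17 alternatives and the control call in 2 of 17. The genotype change of Mat2a was -0.01 ± 0.13 in RNA-seq and -0.01 ± 0.25 in RNC-seq.

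Wtap (chr17:12966796-12994169, minus strand) encodes the adaptor that brings the enzyme pair to nuclear speckles, and it was the lowest of the 9. Its FPKM was 0.331, 0.539 and 0.495 in Igf2bp3+/- RNA-seq and 0.385, 0.60 and 0.361 in Igf2bp3-/- RNA-seq. It was 0.360, 0.299 and 0.334 in Igf2bp3+/- RNC-seq and 0.466, 0.140 and 0.108 in Igf2bp3-/- RNC-seq. The low pair in the knockout polysomes rests on few fragments. Scaled by a transcript of 2060 bases and by the lowest step of each library, which approximates 1 fragment, the 0.140 and 0.108 correspond to about 7.3 and 4.8 steps, against 13.0 to 15.3 in the control polysomes. Its log2 loading was -0.35 ± 0.28 in Igf2bp3+/- (adjusted p = 0.347) and -0.82 ± 0.43 in Igf2bp3-/- (adjusted p = 0.197). Without Igf2bp3-/- RNC-seq replicate 1 the knockout value was -1.27 and passed (adjusted p = 0.0479, with 0.0479 to 0.455 over 16 alternatives). Of its transcript, 32.7% is nearly identical to AC122453.2, with which reads could be shared. On the log2(FPKM + 0.1) scale changes of a gene this low are understated.

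Zc3h13 (chr14:75284373-75344426, plus strand) encodes a zinc finger protein that keeps the regulatory complex in the nucleus. Its FPKM was 0.768, 0.891 and 0.662 in Igf2bp3+/- RNA-seq and 0.635, 0.933 and 1.04 in Igf2bp3-/- RNA-seq. It was 1.40, 0.476 and 0.798 in Igf2bp3+/- RNC-seq and 2.03, 0.376 and 1.43 in Igf2bp3-/- RNC-seq. In Igf2bp3+/- RNC-seq its coefficient of variation, 52.7%, was the highest of the 9, and it was 65.5% in Igf2bp3-/- RNC-seq, against 14.8% and 24.1% in the inputs. The low libraries still held about 72.7 and 58.7 lowest steps, for a transcript of 6144 bases. Its loading on that scale was 0.08 ± 0.35 in Igf2bp3+/- and 0.28 ± 0.50 in Igf2bp3-/-. Without Igf2bp3-/- RNC-seq replicate 2 the knockout value was 0.92 and passed as higher on polysomes (adjusted p = 0.0412, with 0.0412 to 0.938 over 17 alternatives).

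Rbm15 (chr3:107325421-107333673, minus strand) encodes an RNA-binding protein that directs the writer complex to its sites. Its FPKM was 14.8, 14.4 and 17.0 in Igf2bp3+/- RNA-seq and 12.5, 13.0 and 13.0 in Igf2bp3-/- RNA-seq. It was 7.45, 8.43 and 9.99 in Igf2bp3+/- RNC-seq and 10.1, 10.4 and 7.45 in Igf2bp3-/- RNC-seq. The polysome libraries lay below the inputs in both genotypes, and the knockout inputs lay below the control inputs. For Rbm15 the log2 loading was -0.83 ± 0.15 in Igf2bp3+/- (adjusted p = 0.00307) and -0.48 ± 0.18 in Igf2bp3-/- (adjusted p = 0.0962), and the knockout value was -0.56 without Igf2bp3-/- RNC-seq replicate 2 (adjusted p = 0.0376, with 0.0288 to 0.259 over 17 alternatives). Rbm15 was the 1 gene of 9 whose RNA-seq libraries did not overlap between genotypes as lower in the knockout, as was the case for 8.68% of all genes. Its RNA-seq change was -0.25 ± 0.10, with an unadjusted p of 0.0363 (5.32% of all genes were lower at that limit) and an adjusted p of 0.293, so that it did not pass.

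Cbll1 (chr12:31484829-31499616, minus strand) encodes HAKAI, the ubiquitin ligase of the regulatory complex. Its FPKM was 14.6, 17.9 and 14.5 in Igf2bp3+/- RNA-seq against 7.27, 7.72 and 8.37 in Igf2bp3+/- RNC-seq. In Igf2bp3-/- it was 15.4, 14.8 and 13.5 in RNA-seq and 9.17, 16.8 and 8.80 in RNC-seq. The control polysome level was thus 0.502-fold of the input on the log2(FPKM + 0.1) scale, and the lone high polysome value in the knockout was that of RNC-seq replicate 2, the library that resembled the inputs. The log2 loading was -1.0 ± 0.14 in Igf2bp3+/- (adjusted p = 0.000976), the smallest p of the 9. It was -0.39 ± 0.25 in Igf2bp3-/- (adjusted p = 0.291). Without RNC-seq replicate 2 the knockout loading was -0.69 ± 0.14 and passed (adjusted p = 0.00900, with 0.00900 to 0.581 over 17 alternatives). Cbll1 exons share 17.6% of their bases with Gm29542 on the opposite strand.

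Alkbh5 (chr11:60536381-60558512, plus strand) encodes the eraser whose loss impairs male fertility. Its FPKM was 11.4, 11.8 and 13.7 in Igf2bp3+/- RNA-seq and 10.9, 11.4 and 11.3 in Igf2bp3-/- RNA-seq. It was 5.61, 9.13 and 7.82 in Igf2bp3+/- RNC-seq and 10.1, 11.1 and 7.03 in Igf2bp3-/- RNC-seq. Control polysomes lay below control inputs, and in the knockout replicate 2 reached into the input range. The log2 loading was -0.73 ± 0.20 in Igf2bp3+/- (adjusted p = 0.0165) and -0.28 ± 0.20 in Igf2bp3-/- (adjusted p = 0.358). The control call was lost without Igf2bp3+/- RNA-seq replicate 3 (-0.65) and with median-centred libraries (-0.55), with adjusted p from 0.00746 to 0.0824 over 17 alternatives. Between genotypes its RNA-seq change was -0.13 ± 0.11 (95% interval -0.38 to 0.11).

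Fto (chr8:91313525-91668439, plus strand) encodes the other eraser and was the highest of the 9 in each group. Its FPKM was 28.4, 31.8 and 33.6 in Igf2bp3+/- RNA-seq and 30.4, 29.3 and 27.0 in Igf2bp3-/- RNA-seq. It was 19, 19 and 20.6 in Igf2bp3+/- RNC-seq and 25.0, 39.7 and 22.2 in Igf2bp3-/- RNC-seq. The knockout polysome libraries all lay above the control ones, and replicate 2 lay above every input library as well. The log2 loading was -0.67 ± 0.12 in Igf2bp3+/- (adjusted p = 0.00290) and -0.04 ± 0.22 in Igf2bp3-/- (adjusted p = 0.914), the latter ranging from -0.29 without RNC-seq replicate 2 to 0.13 without replicate 3. Fto was 2.45- to 2.69-fold of Alkbh5 within the Igf2bp3+/- RNA-seq libraries, and 2.40- to 2.79-fold within those of Igf2bp3-/-.

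**Figure D2:**
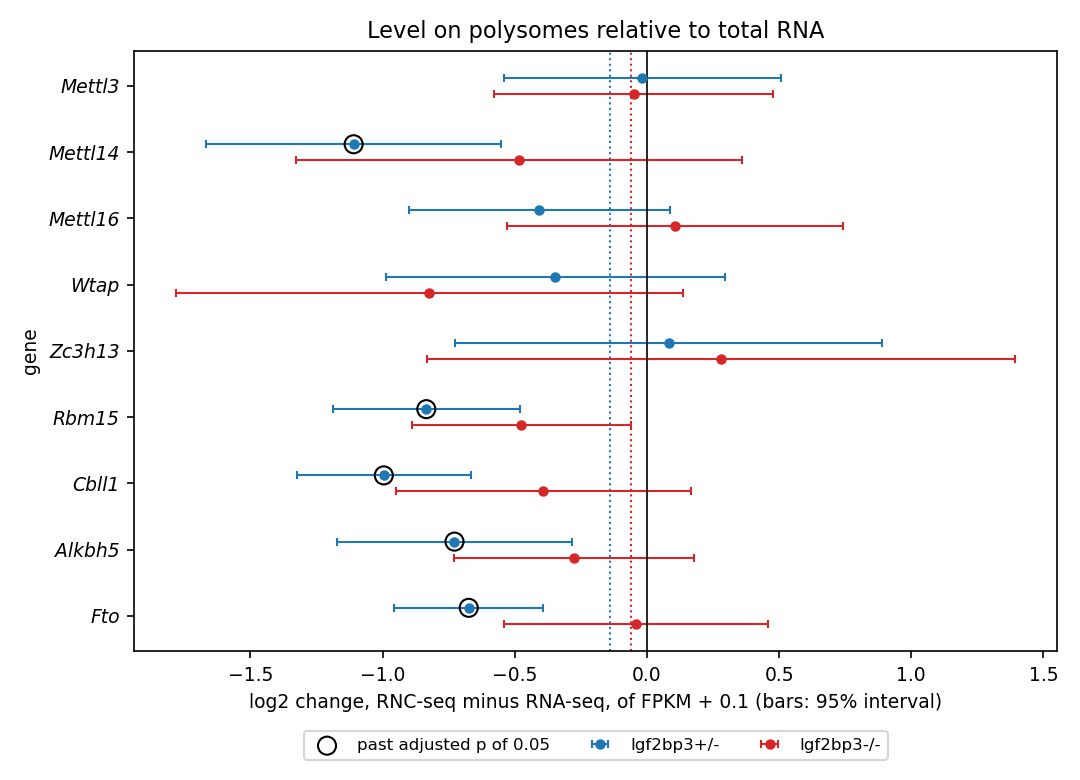
Log2 loading (RNC-seq minus RNA-seq change of log2(FPKM + 0.1)) of each gene in Igf2bp3+/- (blue) and Igf2bp3-/- (red), with limma 95% intervals as bars, 3 libraries per assay and genotype, black rings for adjusted p under 0.05, and dotted lines at the medians over all genes (-0.14 and -0.06). The 5 ringed points are all Igf2bp3+/-, and the intervals of the knockout overlap those of the control for every gene.

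Apart from the test, 6 of 9 genes had Igf2bp3+/- polysome libraries wholly below the input libraries, where 34.0% of all genes did, and 1 of 9 did so in Igf2bp3-/-, where 22.3% of all genes did. The 5 called genes are the 4 of the high set together with Mettl14. As a ratio of mean FPKM, the TE used in the study, 8 of 9 were below 1 in Igf2bp3+/- and 6 of 9 in Igf2bp3-/-. The median over 19433 genes was 0.918 and 0.979 in the same order. Among the genes called lower in the control, this ratio ran from 0.418 for Mettl14 to 0.625 for Fto, and in the knockout it ran from 0.725 for Rbm15 to 1.00 for Fto. These loadings passed in 1 genotype and not in the other, but a difference in loading between genotypes was not shown, as the TE test below gives.

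Between genotypes no member was called in any of the alternatives of the 3 comparisons, including those that left out single libraries. In RNA-seq 7 of 9 genes were below 0, with a median log2 change of -0.11 beside 0.05 over all genes, and the changes ran from -0.47 for Mettl14 to 0.22 for Mettl3. In RNC-seq 8 of 9 were above 0, with a median of 0.24 beside 0.13 over all genes, and 7 of 9 were above 0 under each of 3 other scalings, where Rbm15 changed sign. The changes ran from -0.50 for Wtap to 0.52 for Fto. In the same comparisons 3 of 6 Leydig markers were higher in the knockout in RNA-seq and 1 of 6 in RNC-seq.

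Fto and Cbll1 were the 2 genes whose RNC-seq libraries did not overlap as higher in the knockout, where 9.44% of all genes did so. The RNC-seq change was 0.52 ± 0.24 for Fto (adjusted p = 0.767) and 0.50 ± 0.27 for Cbll1 (adjusted p = 0.797). Without Igf2bp3-/- RNC-seq replicate 2 they were 0.27 ± 0.21 and 0.21 ± 0.23.

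For TE, 7 of 9 genes were above 0, with a median of 0.45 beside 0.06 over all genes. Fto had the largest change, 0.63 ± 0.26 (95% interval 0.07 to 1.2), with an unadjusted p of 0.0305 and an adjusted p of 0.686. It was 1 of 9 at that unadjusted limit in the higher direction, where 5.54% of all genes were. Mettl14 followed at 0.63 ± 0.47 and Cbll1 at 0.60 ± 0.30 (adjusted p = 0.712). The TE change without Igf2bp3-/- RNC-seq replicate 2 was 0.38 ± 0.18 for Fto, 0.90 ± 0.45 for Mettl14 and 0.31 ± 0.20 for Cbll1. Over the 12 fits that left libraries out, the TE change of Mettl14 ran from 0.20 to 0.90. By the ratio of mean FPKM, without a test, TE was over 1.5-fold higher in the knockout for 3 of 9 genes, Mettl14 (1.8-fold), Fto (1.61-fold) and Cbll1 (1.60-fold), where 20.0% of all genes were, and over 1.5-fold lower for 0 of 9, where 9.27% were. The gene nearest below that limit was Mettl16 at 1.49-fold. Without Igf2bp3-/- RNC-seq replicate 2, left out after seeing the data, the ratio was over that limit for 2 of 9 genes, Mettl14 (2.19-fold) and Zc3h13 (1.73-fold), where 17.2% of all genes were, and it fell to 1.31-fold for Fto and 1.24-fold for Cbll1. With replicate 1 of that group left out instead, the ratio was 1.14-fold for Mettl14 and 0.90-fold for Zc3h13. It was then over the limit for 2 of 9 genes, Cbll1 (1.77-fold) and Fto (1.72-fold), where 19.8% of all genes were. In the lower direction 1 gene passed, Wtap (0.38-fold), where 10.6% of all genes did. The 95% interval of the TE change reached from -1.24 to 1.63 for Zc3h13 and from -0.73 to 0.66 for Mettl3, so that changes within these bounds were not excluded for them.

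**Figure D3:**
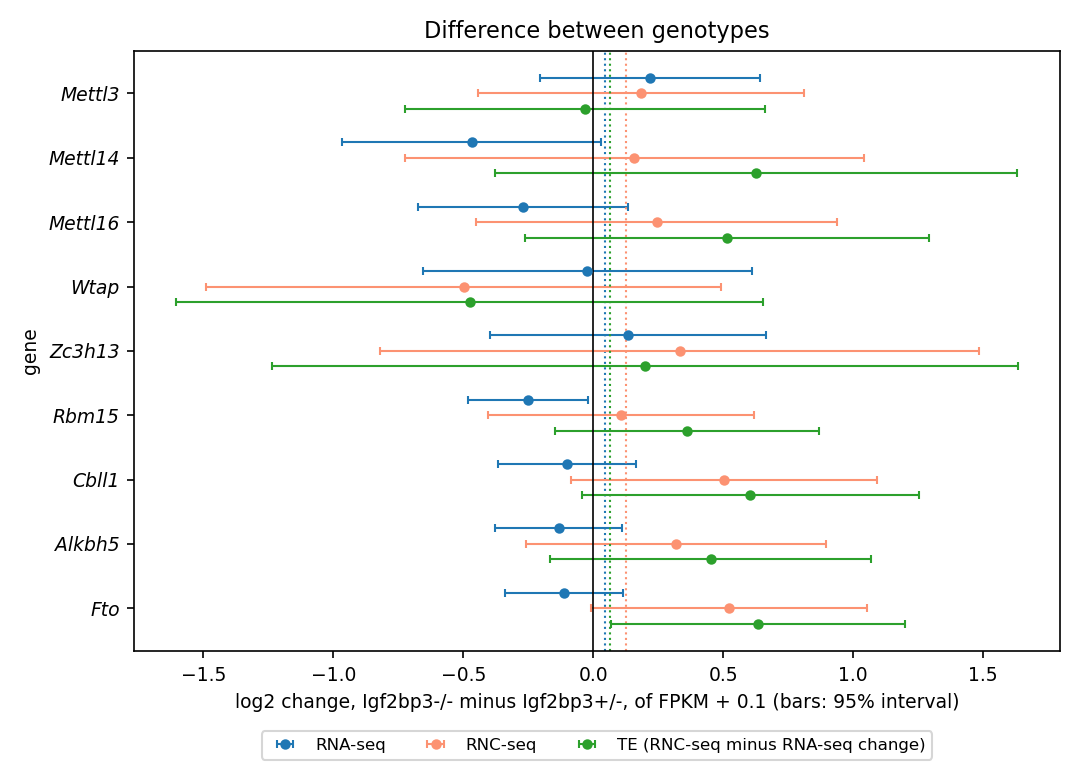
Log2 change from Igf2bp3+/- to Igf2bp3-/- of each gene in RNA-seq (blue), in RNC-seq (salmon) and as TE (green, the RNC-seq change minus the RNA-seq change), with limma 95% intervals from 3 libraries per group and dotted lines at the medians over all genes. No gene passed an adjusted p of 0.05, and of the 27 intervals only those of Rbm15 in RNA-seq and Fto for TE leave out 0.

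The 9 genes did not vary as 1 block across libraries. Over the 36 pairs, Pearson's r of log2(FPKM + 0.1) across the 12 libraries ran from -0.42 to 0.93 with a median of 0.39, and 25 pairs were above 0. The highest was Fto with Cbll1 (r = 0.93), followed by Rbm15 with Alkbh5 (r = 0.89), and the lowest was Zc3h13 with Cbll1 (r = -0.42). After the group means were removed, r was 0.92 for Fto with Cbll1 and 0.82 for Rbm15 with Alkbh5. Without Igf2bp3-/- RNC-seq replicate 2 the r of these deviations was 0.50 for Fto with Cbll1 and 0.78 for Rbm15 with Alkbh5, so that the value of the former pair rested largely on this library, whereas their r before the group means were removed was 0.95 without it. On that scale the core subunits went with other genes. Mettl14 was most like Wtap (r = 0.81) and Mettl3 most like Zc3h13 (r = 0.72), while Mettl3 went against Alkbh5, Cbll1 and Fto (r = -0.74, -0.74 and -0.73). Without that library these were 0.80, 0.52, -0.67, -0.63 and -0.60 in the same order. These points share libraries, and the values are a description. Fto was 1.78- to 2.31-fold of Cbll1 within the Igf2bp3+/- RNA-seq libraries and 2.37- to 2.73-fold of it within the Igf2bp3-/- RNC-seq libraries, replicate 2 included.

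**Figure D4:**
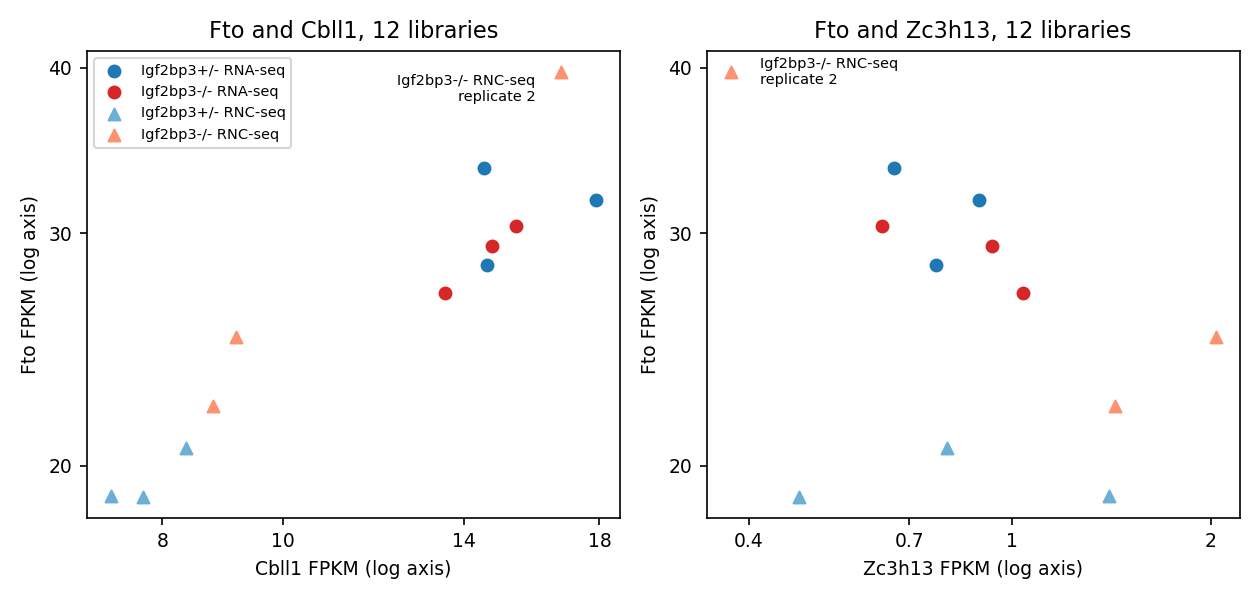
FPKM of Fto (both vertical axes, log) against that of Cbll1 (left) and Zc3h13 (right) in the 12 libraries, coloured by genotype and shaped by assay. Fto and Cbll1 have r = 0.93 across the libraries, and Igf2bp3-/- RNC-seq replicate 2 holds the highest Fto (39.7 FPKM) with the lowest Zc3h13 (0.376 FPKM).

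Promoter windows were read for Fto and Cbll1, the pair with the highest r. RefSeq windows (GRCm38.p6) of 300 bases, 250 before and 50 after the start, were matched for 8 of the 9 genes. Capitals mark matches on either strand to the core of the GC box (GGGCGG, in 35.7% of 32851 windows), the CCAAT box (CCAAT, 37.4%), the full cAMP response element (TGACGTCA, 1.79%), which CREM binds in spermatids, and the ETS core (CCGGAA, 14.9%). The motifs do not overlap each other, but adjoining GC boxes can share bases.
Cbll1, chr12:31499567-31499866, minus strand: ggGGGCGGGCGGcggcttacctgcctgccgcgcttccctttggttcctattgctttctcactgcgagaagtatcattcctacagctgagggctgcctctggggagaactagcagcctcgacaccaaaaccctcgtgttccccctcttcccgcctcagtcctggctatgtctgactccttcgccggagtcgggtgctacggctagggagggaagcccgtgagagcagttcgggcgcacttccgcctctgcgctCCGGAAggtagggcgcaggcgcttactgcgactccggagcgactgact
Fto, chr8:91313275-91313574, plus strand: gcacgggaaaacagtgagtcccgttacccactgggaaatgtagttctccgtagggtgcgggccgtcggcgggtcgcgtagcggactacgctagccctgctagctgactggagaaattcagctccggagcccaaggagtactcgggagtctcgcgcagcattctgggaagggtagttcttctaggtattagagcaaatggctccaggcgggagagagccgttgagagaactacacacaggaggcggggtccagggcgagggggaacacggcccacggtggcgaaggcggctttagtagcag
The Cbll1 window held 2 overlapping GC box cores and 1 ETS core, and the Fto window held 0 matches to these letters. No window of the 8 genes held the full cAMP response element. A GC box core was found in at least 1 window of 5 of the 8 genes (Wtap, Zc3h13, Rbm15, Cbll1 and Alkbh5), which include the lowest of the 9 in level and 3 of the 4 high ones. The Cbll1 and Fto windows held 24 and 23 CpG dinucleotides, at percentiles 81.6 and 80.0 of all windows.

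Their transcripts were not alike in length, taking for each gene the annotated transcript with the longest coding sequence. Which annotated transcript these cells carry was not tested. Lengths ran from 2025 bases for Mettl3 to 6144 for Zc3h13 beside a median of 2676 over 13455 protein-coding genes. The 3′ UTR ran from 139 bases for Mettl16 to 4100 for Alkbh5, beside a median of 741. All 9 transcripts held GGACT, a common form of the m6A consensus, which 88.9% of transcripts held. Per kilobase, Wtap had 2.43 copies and Mettl3 1.98, at percentiles 93.7 and 87.3, and Rbm15 had 0.461 at percentile 18.3. A copy of the motif does not show that a site is methylated, and no methylation was measured in these libraries.

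The rest of the m6A system was read from 4 further lists. Of 7 other writer genes, 2 were lower and 2 higher on polysomes in Igf2bp3+/-, and 1 was lower and 1 higher in Igf2bp3-/-. Over all genes tested, 26.3% were called lower and 17.3% higher in Igf2bp3+/-, and 11.0% lower and 9.48% higher in Igf2bp3-/-. Virma, the scaffold of the regulatory complex, was lower in both (log2 loading -1.65 ± 0.21, adjusted p = 0.000575, and -1.47 ± 0.24, adjusted p = 0.00576). Its FPKM was 4.56, 6.05 and 6.41 in Igf2bp3+/- RNA-seq against 1.37, 1.84 and 2.01 in RNC-seq. Trmt112, the partner of several methyltransferases, was higher on polysomes in both (1.40 ± 0.18, adjusted p = 0.000639, and 1.26 ± 0.19, adjusted p = 0.00462). Rbm15b, the relative of Rbm15, was lower in Igf2bp3+/- (-0.72 ± 0.21, adjusted p = 0.0240), a call lost in 6 of 16 alternatives. Mettl5, which methylates ribosomal RNA, was higher there (1.03 ± 0.30, adjusted p = 0.0220), a call lost in 4 of 16. Mettl5 also had the smallest p of this list between genotypes in RNA-seq, with 0.345, 0.680 and 0.376 FPKM against 0.751, 1.31 and 1.18 and a log2 change of 1.07 ± 0.30 that did not pass (adjusted p = 0.192).

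Among the 6 genes of S-adenosylmethionine supply, 5 were tested, and Mat2a and Ahcyl1 (-1.03 ± 0.24, adjusted p = 0.00874) were lower on polysomes in Igf2bp3+/-, with Mat2a lower also in Igf2bp3-/-. Of the AlkB relatives of Alkbh5, 3 of 6 tested in Igf2bp3+/- were higher on polysomes and 0 lower, Alkbh3 (0.55 ± 0.14, adjusted p = 0.0149), Alkbh6 (1.11 ± 0.16, adjusted p = 0.00102) and Alkbh7 (1.24 ± 0.13, adjusted p = 0.000230), and the latter pair was higher in Igf2bp3-/- too (0.95 ± 0.24, adjusted p = 0.0222, and 1.09 ± 0.21, adjusted p = 0.00961). Of these 5 calls, 3 were lost under some alternative, in 1 to 3 of 17. Over all genes, 17.3% were higher in Igf2bp3+/- and 9.48% in Igf2bp3-/-. The 11 readers include Igf2bp1, Igf2bp2 and Igf2bp3 itself, and the knockout mRNA of the last carries the frameshift. Of the 11 readers, 5 were lower in Igf2bp3+/- (Ythdf1, Ythdf2, Ythdc1, Hnrnpa2b1 and Rbmx), where 26.3% of all genes were. In Igf2bp3-/- 4 readers were lower (the same without Hnrnpa2b1), where 11.0% of all genes were, and 0 were higher in either genotype. The knockout calls of Ythdf1, Rbmx and Ythdf2 were lost in 7, 5 and 3 of their alternatives. The nuclear reader Ythdc1 had the lowest loading of them at -1.78 ± 0.19 and -1.24 ± 0.20 (adjusted p = 0.000241 and 0.00535). Ythdf1 stood at -1.09 ± 0.23 and -1.02 ± 0.30, Ythdf2 at -0.77 ± 0.16 and -0.84 ± 0.19, and Rbmx at -1.31 ± 0.31 and -1.01 ± 0.28, in the same order. The median log2 loading in Igf2bp3+/- was -0.32 for the other writers, -0.38 for the supply genes, 0.24 for the AlkB family and -0.49 for the readers, beside -0.67 for the 9 genes.

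**Figure D5:**
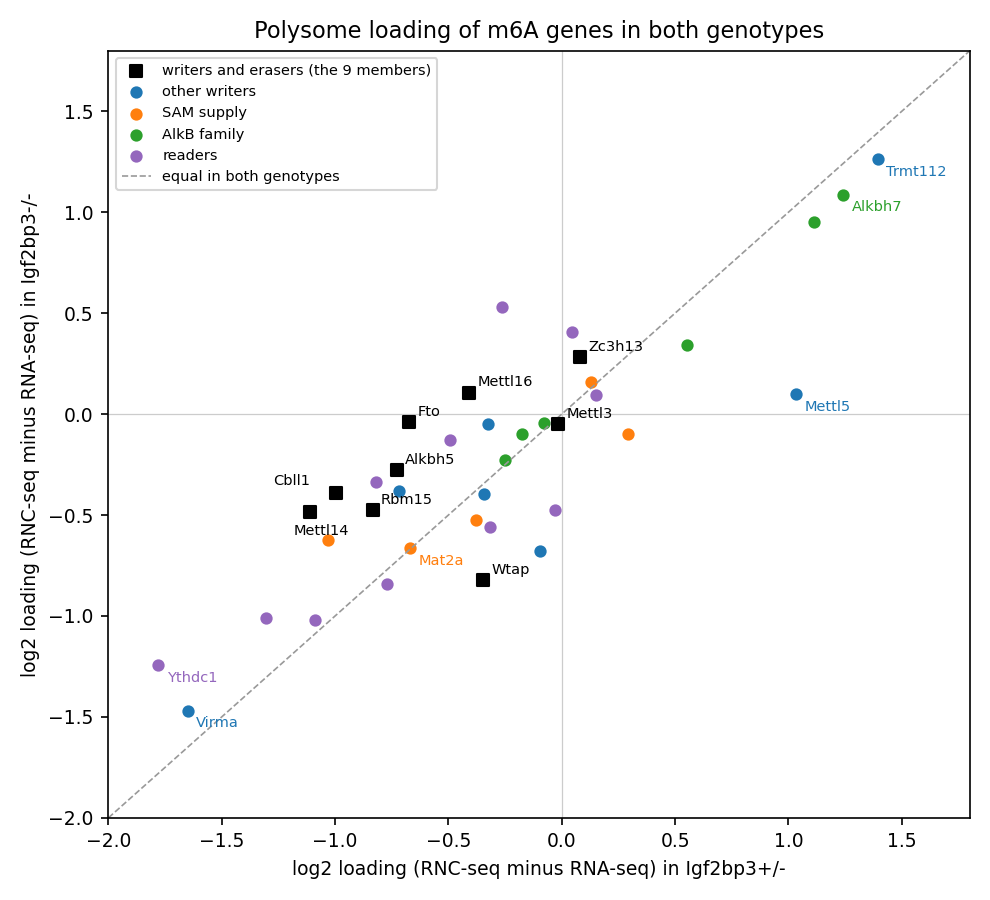
Log2 loading in Igf2bp3+/- (horizontal) against Igf2bp3-/- (vertical) for the 9 writers and erasers (black squares) and the genes of the 4 other lists (coloured points); the dashed line marks equal loading in both genotypes. Virma and Ythdc1 lie lowest and Trmt112 and Alkbh7 highest, while Fto (-0.67 and -0.04) lies above the line.

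Between genotypes 0 genes of these 4 lists passed in limma, and at an unadjusted p under 0.05 there were 1 other writer, 2 supply genes and 1 reader in RNA-seq, all higher in the knockout (as were 10.4% of all genes), 0 in RNC-seq and 1 other writer, Mettl5, lower for TE (as were 1.58% of all genes). The smallest p of the supply genes in RNA-seq was that of Mat2b (log2 change 0.43 ± 0.17, adjusted p = 0.294), of the AlkB family that of Alkbh6 (0.31 ± 0.14, adjusted p = 0.329) and of the readers that of Ythdf3 (0.34 ± 0.12, adjusted p = 0.257). In RNC-seq they were Pcif1 (0.29 ± 0.22), Ahcy (0.29 ± 0.23), Alkbh2 (0.77 ± 0.49) and Hnrnpa2b1 (0.32 ± 0.20), with adjusted p from 0.820 to 0.844. For TE they were Mettl5 (-0.93 ± 0.40), Ahcyl1 (0.41 ± 0.31), Alkbh2 (0.55 ± 0.54) and Hnrnpa2b1 (0.48 ± 0.24), with adjusted p from 0.689 to 0.811.

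Across the table, the genes whose 12-library pattern was most like that of Mettl3, among 11388 genes compared, were Gm21865 (r = 0.90), Fam204a (r = 0.88) and Prim1 (r = 0.88). For Alkbh5 they were Arhgef2 (r = 0.98), Ccdc13 (r = 0.98) and Epn2 (r = 0.98). The difference between the total RNA libraries and the polysome libraries enters these values.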

How the data were processed

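The authors deposited 1 table of FPKM for 12 libraries of sorted round spermatids, 3 for each genotype and assay, as grouped by the labels. Per the labels and the study's methods, CASAVA 1.8 and Trim Galore 0.6.6 prepared the reads, HISAT2 mapped them to GRCm38, and StringTie 2.1.7 gave the FPKM. The annotation release and the use of strand are not given in the sources used here, and the labels and the methods name different library kits and instruments. The FPKM values were not rescaled. Of 28668 symbols, 25 turned into dates were left out (0.0995% of the summed FPKM).

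For each gene, log2(FPKM + 0.1) was fitted in limma 3.58.1 (R 4.3.3) with moderation along an intensity trend and a two-sided test, among genes with a mean FPKM above 0.1 (for TE, in both assays). P-values were adjusted over all genes tested (Benjamini-Hochberg), and 0.05 was the limit. Genotype was tested within each assay, polysome loading within each genotype, and TE as the interaction over 12 libraries, with code tested on simulated data. Alternatives covered the pseudocount, filter, scaling, weights, variance trend, replicate block, the fit over all 12 libraries and each library left out. The 9 genes and the lists were chosen with earlier results of these data known. The rule for named genes took all 9 and, from each further list, the genes past the limit or else the one with the smallest p. It also took the 3 genes most like Mettl3 and most like Alkbh5. Positions and transcripts are those of GENCODE M21 on GRCm38, to which 27839 of the symbols matched. None of the 9 had a copy of at least 95% identity over 50% of its transcript (BLAST 2.17.0). Relative depth came from the lowest common value of FPKM times length among genes with 1 transcript.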

Additional observations from a re-analysis of the deposited data

How the results depend on the processing

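No member passed in any alternative of the 3 genotype comparisons under limma. Where a change over 1.5-fold and an unadjusted p under 0.05 were asked for instead, 1 member (Fto) passed for TE, as higher. By that rule 955 of 18414 genes were higher and 252 lower. For loading in Igf2bp3-/- the count of 0 became 1 (Rbm15, lower) with FPKM rescaled without the top transcript, where 17.6% of all genes were lower. It was also 1 (Rbm15, lower) in the fit over all 12 libraries, where 14.5% of all genes were lower. Without single libraries the count ran from 0 to 3. It was 3 (Zc3h13 higher, Rbm15 and Cbll1 lower) without RNC-seq replicate 2 and 1 (Wtap, lower) without RNC-seq replicate 1. Of all genes, 32.7% (15.7% higher, 17.0% lower) were called without RNC-seq replicate 2 and 14.1% (5.34% higher, 8.78% lower) without RNC-seq replicate 1. With every library 20.5% were called (9.48% higher, 11.0% lower). For loading in Igf2bp3+/- the count stayed between 4 and 5, with Alkbh5 lost or, above a mean of 1 FPKM, Mettl14 not tested. The count of members with a TE ratio over 1.5-fold in either direction, 3 with every library, ran from 2 to 5 without single libraries, a choice made after seeing the data. The cause of these differences was not tested.

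Changes near 0 turned sign. With each library centred on its median, the RNC-seq genotype change of Rbm15 was -0.0118 and the loading of Mettl3 was 0.16 (Igf2bp3+/-) and 0.0107 (Igf2bp3-/-), and that of Fto was 0.0207 (Igf2bp3-/-). With quantile normalization Rbm15 was at -0.0014 and Mettl3 at 0.20 and 0.0303. Rescaling moved the median loading of all genes to -0.33 (Igf2bp3+/-) and -0.25 (Igf2bp3-/-), with 1238 genes higher and 3485 lower in the latter against 1882 and 2186. With FPKM rescaled Rbm15 was at -0.0099, the loading of Zc3h13 at -0.12 (Igf2bp3+/-) and that of Mettl16 at -0.10 (Igf2bp3-/-). With library weights the loading of Mettl3 was 0.0668 and 0.0143, and the RNA-seq change of Wtap 0.0329.

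Without single libraries, the RNA-seq change of Wtap ran from -0.21 to 0.0901. The RNC-seq change ran from -0.26 to 0.44 for Mettl14 and from -0.11 to 0.97 for Zc3h13. The TE change ran from -0.17 to 0.13 for Mettl3 and from -0.43 to 0.90 for Zc3h13, with single RNC-seq libraries left out as a choice made after seeing the data. The loading ran in Igf2bp3+/- from -0.13 to 0.12 for Mettl3 and from -0.27 to 0.42 for Zc3h13. In Igf2bp3-/- it ran from -0.29 to 0.13 for Fto, from -0.10 to 0.37 for Mettl16, from -0.19 to 0.11 for Mettl3 and from -0.16 to 0.92 for Zc3h13.

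Deviations from the group means correlated between libraries of the same number in both assays at r from -0.10 to 0.21. Between libraries of different number within a genotype r ran from -0.31 to 0.18. These values do not settle whether the numbers match, and the numbers were not taken as pairs. By the study's methods input and polysome RNA were drawn from 1 extract per mouse, but the labels do not say that numbers match between assays, and loading and TE were fitted as unpaired. With the replicate block the count of members was 0, 0, 0, 5 and 0 in the 5 comparisons, as without it, and over all genes the RNA-seq genotype calls fell from 52 to 4. In the RNA-seq and RNC-seq genotype fits the block joins control and knockout libraries of the same number. The shared extract does not bear on that pairing.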
